A study of Homo sapiens with 3 samples.

Results

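The comparison set SW48 cells that, per the labels, carried a plasmid for DDX3 overexpression together with a plasmid for YAP1 knockdown, labelled DDX3+YAPsi, against SW48 cells with the empty vector pcDNA3.1. SW48 is an established human colorectal cancer cell line. Each of these groups was 1 sample, and a further sample was labelled as having the DDX3 plasmid alone, so that 2 of 3 samples entered the comparison. Per the labels, all cells, those with the empty vector included, had been under G418 selection for 4 weeks to obtain stable lines. Each sample held 2 technical replicates, whose separate values were not analysed here. The sources used here do not say whether a line was a clone or a pool, or which promoter drove the plasmids. A gene was a member when it had at least 1 probe with exactly 1 gene symbol and its value reached the median of all probes in both libraries. This gave 9855 genes of 18282 genes on the array.

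DDX3 is a DEAD-box protein, one of the enzymes that unwind RNA, with roles in the translation and handling of messenger RNA. YAP1 is a coactivator that the Hippo kinases keep out of the nucleus. In the nucleus it binds DNA through TEAD factors and switches on genes for growth, adhesion and matrix, among them CTGF and CYR61, and it acts together with AP-1, a dimer of FOS and JUN proteins. In the gut epithelium YAP1 is best known for its role in regeneration after injury and in tumour growth.

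Values are fluorescence intensities of probes after each library was scaled to a common 75th percentile. A difference is log2 of the library labelled DDX3+YAPsi minus log2 of the vector library, so that 1 stands for 2-fold and 0.58 for 1.5-fold. Intensities of a gene are given in the order vector, labelled DDX3, labelled DDX3+YAPsi. With 1 library on each side there was no spread between samples, no difference was tested, and no difference has a replicate check. The comparison changes both plasmids at once, so the parts of DDX3 and of the YAP1 knockdown in a difference cannot be told apart within it. The values of the library labelled DDX3 are printed beside it for that reason, and they share the vector library with it.

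The targeted genes did not follow the labels. DDX3X, the gene of the helicase, stood at 9891, 7137 and 6252, a difference of -0.66. Its probes disagreed, with -1.28 for the dimmer and -0.04 for the brighter one. YAP1, with 1 probe, stood at 18298, 20279 and 20768, a difference of 0.18. SIX2, a homeobox factor of progenitor cells, stood at 9353, 20057 and 7243, a difference of -0.37 against the vector library. The libraries are therefore named by their labels throughout. The position of the probes in their transcripts is unknown here, so a DDX3X probe that the DDX3 plasmid's transcript lacks would not show its expression. This limit concerns the DDX3 plasmid and not the YAP1 probe.

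The colon epithelial identity was borne out in part. Of 10 epithelial markers on the array, 6 reached the floor in both libraries. EPCAM, an epithelial adhesion molecule, stood at 100313, 101471 and 87223, and CDX2, a homeobox factor of intestinal cells, at 10278, 10138 and 11044. VIL1 and LGR5, markers of the brush border and of crypt stem cells, were below the floor in all libraries. Of 7 fibroblast markers 1 reached the floor in both libraries, of 6 leukocyte markers 2 did, and of 4 endothelial markers none did. The fibroblast marker was COL1A1, and the leukocyte markers were CD14 and CD68. Summed over each list, the intensities were 191101 and 181597 for the epithelial, 3077 and 3369 for the fibroblast, 2683 and 2774 for the leukocyte and 913 and 1239 for the endothelial markers, in the vector library and the library labelled DDX3+YAPsi. Per the labels all samples were SW48 cells, and these sums are not counts of cells of other kinds. Most of the fibroblast sum came from COL1A1, at 2362 in the vector library. In RNA from whole cultures, fewer cells of a kind and less RNA per cell cannot be told apart.

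Most genes differed little. The median difference over all measured genes was 0.02, and the quartiles of the genes were -0.20 and 0.23. Of 9855 genes, 27 (0.274%) had a difference of 2-fold or more upwards and 20 (0.203%) downwards. The split depended on the scaling, with 14 upwards and 44 downwards after scaling to a common median and 3 and 1892 with no scaling. These settings move the median of all genes by -0.12 and -0.74, so that a positive difference below 0.12 changes sign with the common median and one below 0.74 with no scaling. Families are therefore read against the median of all genes. At 1.5-fold there were 335 higher (3.40%) and 287 lower (2.91%). The difference depended on the level. Over 10 bins of the genes by level its median was 0.14 in the dimmest and -0.05 in the brightest. Of the 27 higher genes, 16 had their dimmer value within 2-fold of the floor, as did 7 of the 20 lower genes and 21.1% of all measured genes.

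**Figure D1:**
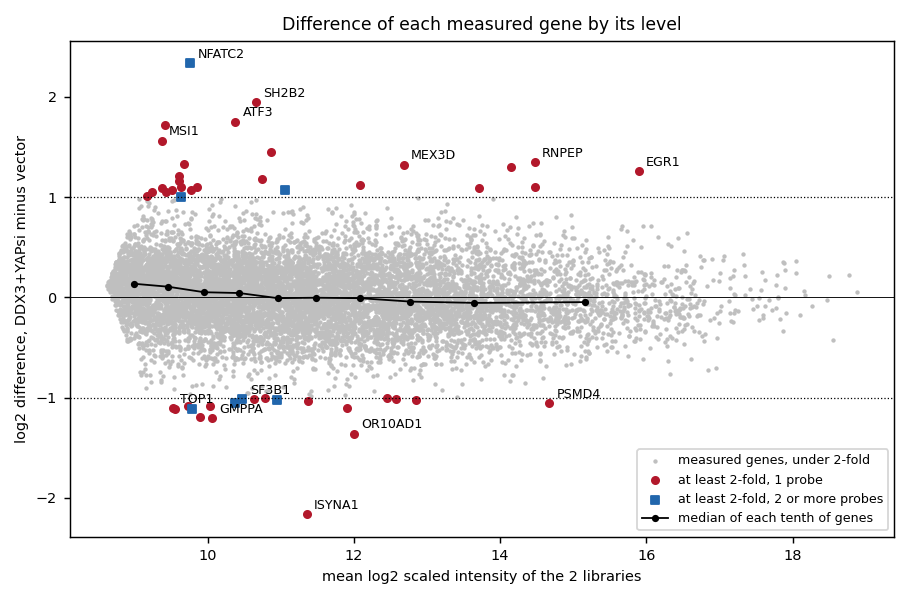
Each point is a measured gene, with the mean log2 scaled intensity of the vector and DDX3+YAPsi libraries on the x axis and the log2 difference, DDX3+YAPsi minus vector, on the y axis. Red circles (1 probe) and blue squares (2 or more probes) mark the 27 genes past 2-fold upwards and the 20 past it downwards, and the black line joins the medians of 10 bins of genes by level, which run from 0.14 for the dimmest to -0.05 for the brightest.

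The higher genes are grouped here by known role, a grouping made after their values were seen, and the share of each role among all genes was not counted. Regulators of transcription come first. ATF3, a stress-induced leucine zipper factor, stood at 725, 1880 and 2443, a difference of 1.75. EGR1, a zinc finger factor induced within minutes of growth factor stimulation, stood at 39502, 53370 and 94328, a difference of 1.26. The library labelled DDX3+YAPsi was the highest and the vector library the lowest for both. FOSL1, an AP-1 subunit, stood at 479, 1093 and 996 (1.06), so the libraries labelled DDX3 and DDX3+YAPsi lay close to each other and above the vector library. SPEN, a corepressor that acts on the Notch factor RBPJ, stood at 9158, 13460 and 19537 (1.09). ZNF703, a corepressor of the breast epithelium, stood at 455, 608 and 967 (1.09), NFIC, a CCAAT-binding factor, at 605, 826 and 1269 (1.07) and AHDC1, a DNA-binding protein, at 422, 424 and 874 (1.05). Each of these genes rests on 1 probe, and ATF3, NFIC, ZNF703, AHDC1 and FOSL1 lay within 2-fold of the floor of 378 in the vector library. A further regulator, NFATC2, a calcium-dependent factor best known in T cells, had the largest value of all measured genes at 2.33. Its probes disagreed, at 0.25 and 4.42, and the second stood at 295, 283 and 6292, below the floor in the vector library and in that labelled DDX3.

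RNA-binding proteins among the higher genes were MSI1, MEX3D and FBLL1. MSI1, or Musashi, represses translation in neural and intestinal stem cells. It stood at 386, 461 and 1140 (1.56), just above the floor in the vector library. MEX3D, which binds AU-rich RNA, stood at 4166, 6579 and 10411 (1.32), well above the floor in every library. FBLL1, a relative of the nucleolar methyltransferase fibrillarin, stood at 1145, 1075 and 2592 (1.18), so that it was high in the library labelled DDX3+YAPsi alone.

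Genes of signalling and traffic follow. SH2B2, an adaptor that docks on receptor tyrosine kinases, stood at 828, 2306 and 3192, a difference of 1.95 on 1 probe. CSNK1G2, a membrane-bound casein kinase, stood at 15592, 26475 and 33474 (1.10). UNC5A, a netrin receptor that triggers cell death without its ligand, stood at 2952, 4092 and 6398 (1.12). In these 3 genes the library labelled DDX3 lay between the others. PACS1, a sorting adaptor of the Golgi, had a difference of 1.21 and FKBPL, an immunophilin-like protein, of 1.10. CDK6, the G1 cyclin-dependent kinase, stood at 565, 1582 and 1131 (1.00), with probes at 1.16, below the floor in the vector library, and 0.84. ARHGAP32, a GTPase-activating protein, had 1.07, with probes at 0.47 and 1.68.

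The other higher genes with a known product included RNPEP, an aminopeptidase of basic residues, at 14286, 29817 and 36429 (1.35), and SAPCD2, which helps to orient the mitotic spindle, at 11543, 16936 and 28338 (1.30). KRT15, a keratin of basal epithelial cells, stood at 522, 960 and 1162 (1.16). VSTM2A (1.10), the olfactory receptor OR11G2 (1.07) and VWA5B2 (1.01) were dim in the vector library, at 636, 505 and 406. LINC00520, C19orf73 and FAM167B completed the 27, at 1.71, 1.45 and 1.33.

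The lowest value was that of ISYNA1, which makes inositol phosphate from glucose 6-phosphate. It stood at 5545, 615 and 1241, a difference of -2.16, or 4.47-fold lower, so that both other libraries lay below the vector library and the one labelled DDX3 was the lowest. Of the 21 measured genes of inositol supply and phosphoinositides, it was the 1 past 2-fold, and their median difference was -0.05. GMPPA, a regulator of GDP-mannose synthesis, stood at 1624, 629 and 703 (-1.21), while the 25 measured genes of GDP-mannose and dolichol glycosylation had a median of -0.09. ACO1, an aconitase that also binds iron-responsive RNA elements, stood at 8647, 7283 and 4293 (-1.01).

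The other lower genes are likewise grouped after their values were seen, beginning with RNA processing proteins. RBM4B, a splicing factor, stood at 1524, 494 and 717 (-1.09). CSTF2, which binds RNA downstream of the polyadenylation site, stood at 10552, 6256 and 5192 (-1.02). IK, a component of the spliceosome, stood at 7915, 4346 and 3946 (-1.004). These 3 genes were lower in both other libraries than in the vector library. SRSF7, an SR protein, stood at 2502, 3117 and 1249 (-1.002), low in the library labelled DDX3+YAPsi alone. SF3B1, the branch point protein of the U2 particle, had a gene value of -1.02 over 3 probes at -0.39, -0.98 and -1.68, the second of them short of the floor in the library labelled DDX3+YAPsi. Of 41 measured core spliceosome proteins 2 were at least 1.5-fold lower and none at least 1.5-fold higher, and of 32 SR proteins and hnRNPs 1 and none were, beside 2.91% and 3.40% of all genes.

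Genes of division, chromatin and DNA were also among the lower ones. CDC25C, the phosphatase that activates CDK1 at entry into mitosis, stood at 3810, 2255 and 1857 (-1.04). TOP1, which relaxes DNA and is the target of irinotecan, stood at 1081, 654 and 502 (-1.11). MORF4L2, of the NuA4 histone acetyltransferase, stood at 1105, 1119 and 512 (-1.11), with the vector library and the library labelled DDX3 close together. ARHGAP19, a GTPase-activating protein of dividing cells, was at -1.11 with probes at -1.38 and -0.85, the first short of the floor in the library labelled DDX3+YAPsi. PSMD4, the ubiquitin receptor of the proteasome, stood at 37732, 27600 and 18126 (-1.06), in steps from the vector library down.

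Lower signalling genes were DACT2, a Dishevelled-binding inhibitor of Wnt signalling, at 1234, 880 and 584 (-1.08), IGBP1, a regulator of protein phosphatase 2A, at 1919, 952 and 926 (-1.05), and TNFRSF19, a Wnt-induced receptor, at 2811, 2225 and 1380 (-1.03). The probes of IGBP1 were close, at -0.999 and -1.11, while those of TNFRSF19 stood at -0.66 and -1.40, and the second of each pair was short of the floor in the library labelled DDX3+YAPsi. TNFRSF19 was the 1 of 17 measured Wnt targets past 2-fold. Of these targets 12 lay above the median of all genes, and their median difference was 0.28. GLIS1, a Krueppel-like zinc finger factor, stood at 1444, 542 and 632 (-1.19), and ZNF434 at 5601, 2691 and 2609 (-1.10). The olfactory receptor OR10AD1 stood at 6559, 3242 and 2558 (-1.36), and C12orf68 was at -1.01. At the 2-fold limit the last genes inside were VWA5B2 and CDK6 on the higher and IK and SRSF7 on the lower side, and the first outside were KLF2 (0.99) and COLEC12 (0.99), and EHF (-0.999) and MRPL38 (-0.997).

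**Figure D2:**
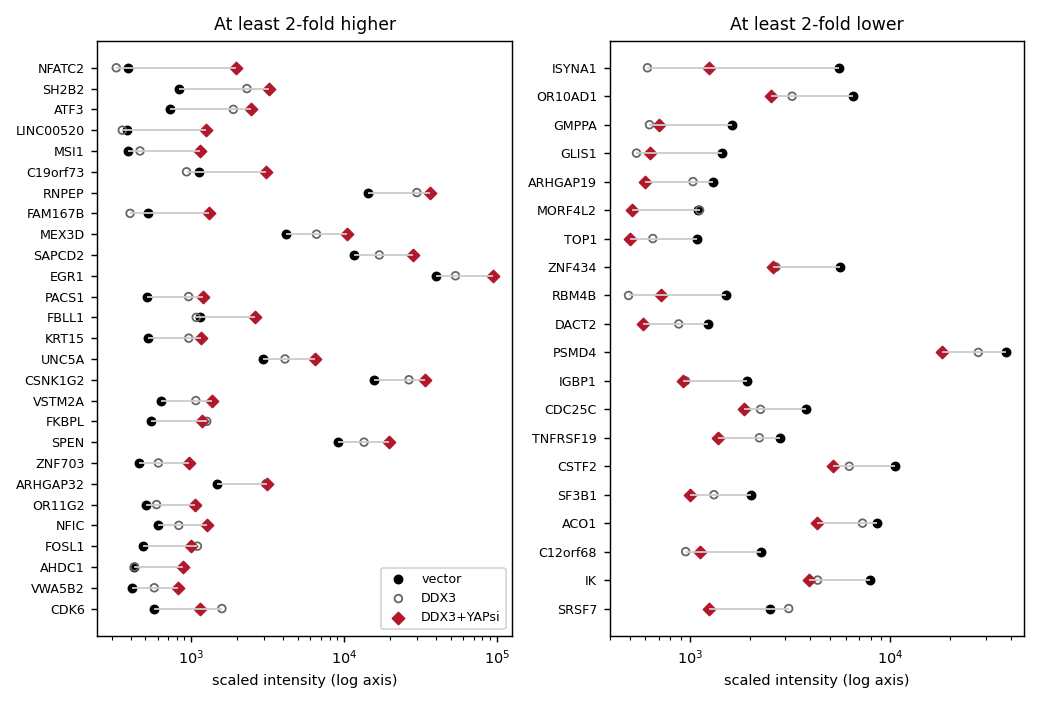
Scaled intensity on a log axis of the 27 genes past 2-fold upwards (left) and the 20 past it downwards (right), with the vector library as black circles, the library labelled DDX3 as open circles and that labelled DDX3+YAPsi as red diamonds. There is 1 sample per group and so no error bar, and ISYNA1 runs from 5545 in the vector library to 1241.

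The agreement of probes within a gene gave the 1 measure of error that the table allows. It covers probe and hybridisation differences within these libraries, not the spread between samples. Of 2083 genes with exactly 2 probes at or above the floor, both probes lay on the same side of the median probe in 1297 (62.3%), and in 43 genes (2.06%) they were 2-fold or more apart. The SD of probes around their gene mean was 0.29, beside an SD of 0.36 over all differences of the same probes. Over all measured gene differences, most of them from 1 probe, the SD was 0.32. Across these genes the values of both probes had a Pearson correlation of 0.33 and a Spearman correlation of 0.34, and genes are not independent replicates. Past 2-fold were 40 of 6671 genes with 1 probe (0.6%) and 7 of 3184 with more (0.22%), and no gene had all of 2 or more probes at or above the floor and past 2-fold.

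Genes in which several probes lay on the same side are therefore given separately. All probes were at or above the floor in 2068 genes with 2 or more probes, of which 17 had every probe at least 1.5-fold higher and 13 every probe at least 1.5-fold lower. AP1S3, a subunit of the clathrin adaptor complex, stood at 2895, 4422 and 5486 (0.92), with probes at 0.84 and 1.01. EFNA5, a ligand of EPH receptors, stood at 1684, 2412 and 3057 (0.86), with probes at 0.79 and 0.93. SKI, a corepressor of SMAD signalling, stood at 1276, 1975 and 2228 (0.80), and ZFP36L1, which promotes the decay of AU-rich messenger RNA, at 21038, 30202 and 36674 (0.80). For all 4 the vector library was the lowest and the library labelled DDX3+YAPsi the highest. LPP, a partner of zyxin at focal adhesions (0.79), CAMK2N1, an inhibitor of CaM kinase II (0.86), PHLDA1, an ERK-induced protein (0.69), KIF1C, a kinesin (0.71), and NFIA (0.71) were in the same group.

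On the lower side ZNF32 stood at 3846, 3476 and 1950 (-0.98), with probes at -0.95 and -1.01. SPTSSB, a small subunit of serine palmitoyltransferase, stood at 12963, 8159 and 6840 (-0.92), and SPTLC1, the large subunit of that enzyme of sphingolipid synthesis, was at -0.66 with 3 probes between -0.72 and -0.63. GFM2, a mitochondrial ribosome recycling factor, was at -0.92, CCT2, a subunit of the chaperonin TRiC, at -0.85, SDF2 at -0.79 and the glycosyltransferase GALNT11 at -0.76. FDPS and ACAT2, enzymes of the mevalonate route and its entry, stood at -0.76 and -0.66. SF3A3 of the U2 particle (-0.66), the import receptor IPO11 (-0.65), MATR3 of the nuclear matrix (-0.59) and PDE4B, a cyclic AMP phosphodiesterase with 3 probes between -1.17 and -0.57, completed the genes named here.

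**Figure D3:**
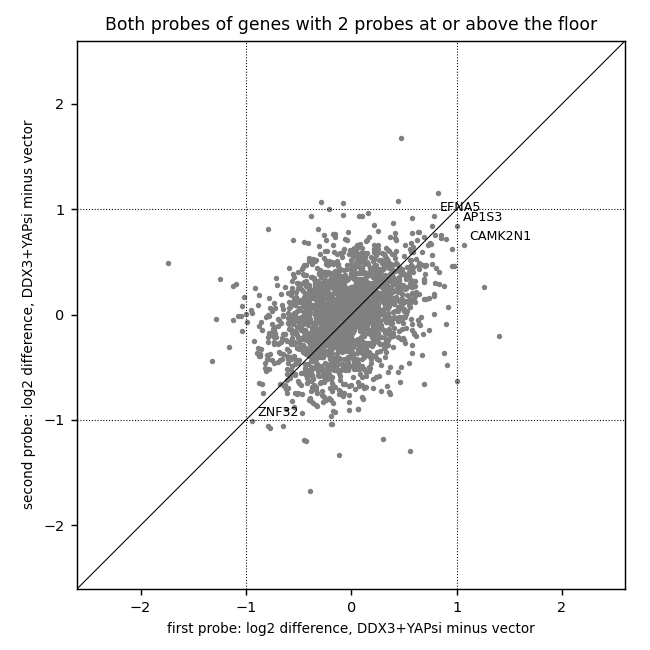
Each of the 2083 points is a gene with exactly 2 probes at or above the floor, with the log2 difference, DDX3+YAPsi minus vector, of the first probe on the x axis and of the second on the y axis. The diagonal marks equal values and the dotted lines 2-fold, and no point lies past 2-fold on both axes in the same direction, with AP1S3 and ZNF32 among the closest to it.

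Genes that reached the floor in 1 of both libraries have only a bound. There were 236 such genes on each side, and the brighter value was at least 2-fold over the other library's floor for 5 on the higher and 1 on the lower side. AK5, an adenylate kinase of the brain, stood at 95, 84 and 1201, at least 3.18-fold higher. SLURP1, a secreted skin protein, stood at 296, 236 and 829 (at least 2.19-fold higher) and SLITRK3, a synaptic membrane protein, at 248, 240 and 767 (at least 2.03-fold higher). These genes were low in the vector library and the library labelled DDX3 alike. DIP2C had the largest bound, at least 5.88-fold higher, from probes that disagreed at -0.09 and 5.25. SLC25A29, a mitochondrial carrier of basic amino acids, stood at 849, 506 and 376, at least 2.07-fold lower. The genes closest to the floor were GLI4 (-0.30), PROL1 (0.44) and IFT140 (0.15) inside, and PARD3B (0.04), CYP8B1 (0.05) and MOCS2 (-0.64) outside it.

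The genes were also described by 78 lists of families and pathways, 77 of which had 4 or more measured members. In 45 lists the median lay 0.1 or more from that of all genes. Above it lay, among others, the immediate early, ERK output, Notch and Krueppel-like lists, and below it the aminoacyl-tRNA synthetases, the proteasome and the tricarboxylic acid cycle. The largest transcription factor list, 215 C2H2 zinc finger genes, had a median of 0.03 with 114 genes above the median of all genes and 101 below. No list was tested. The lists overlap, so that for example 6 genes are shared by the immediate early and the AP-1 lists.

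**Figure D4:**
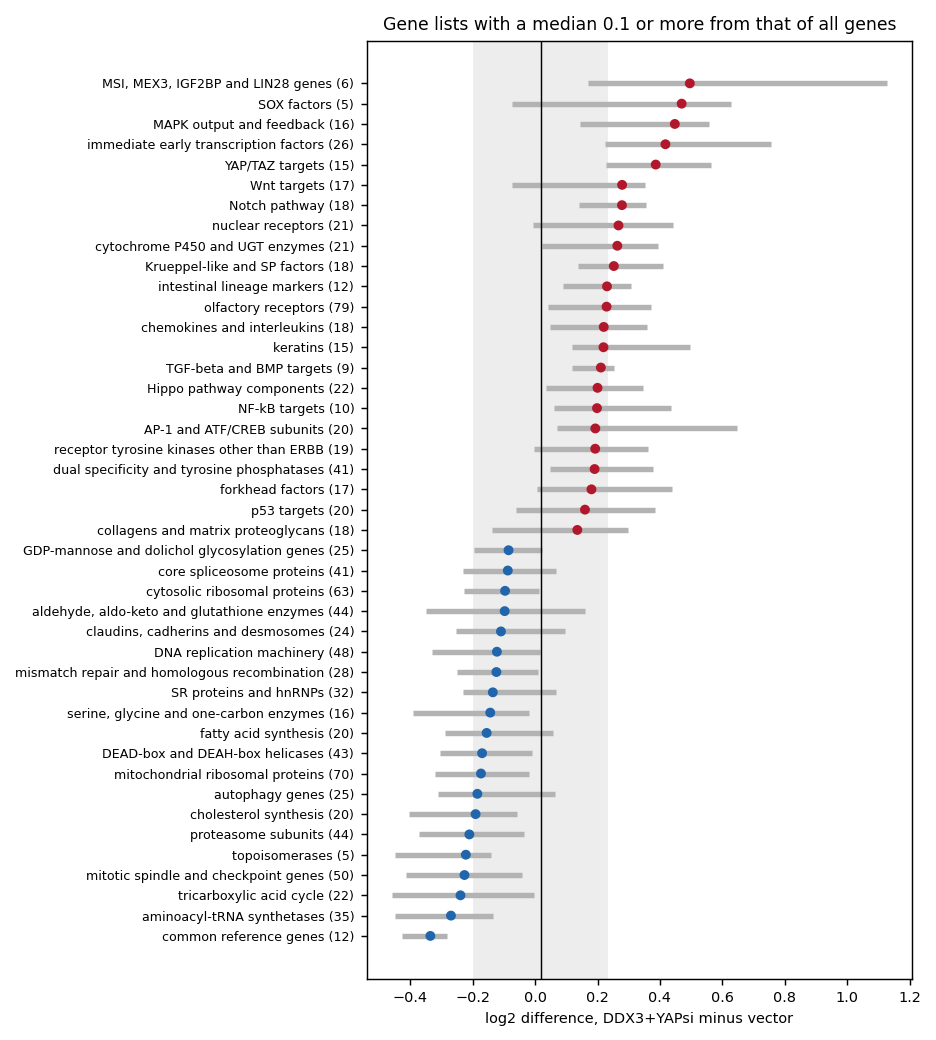
Median (points) and quartiles (bars) of the log2 difference, DDX3+YAPsi minus vector, over the measured members of each of 43 of the 45 lists whose median lay 0.1 or more from that of all genes, with the number of measured members in brackets. The vertical line is the median of all measured genes (0.02) and the shaded band their quartiles, and the lists run from the common reference genes at -0.34 to the Musashi, MEX3 and IGF2BP genes at 0.50.

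Immediate early genes, which cells switch on within minutes of a stimulus without new protein, lay high as a list. Of 28 on the array 26 were measured, 24 of 26 lay above the median of all genes and their median was 0.42. At least 1.5-fold higher were 10 of 26, beside 3.40% of all genes, and none was at least 1.5-fold lower, beside 2.91%. Beside ATF3 and EGR1, ZFP36, which destabilises cytokine messenger RNA, stood at 828, 1330 and 1599 (0.95), and JUN at 1969, 3331 and 3487 (0.82). NR4A1, an orphan nuclear receptor, stood at 668, 869 and 1153 (0.79), FOSB at 462, 708 and 729 (0.66) and FOS at 2925, 4669 and 4567 (0.64). For JUN, FOSB and FOS the libraries labelled DDX3 and DDX3+YAPsi lay close together and above the vector library. Over 20 AP-1 and ATF/CREB subunits the median was 0.19, and 6 were at least 1.5-fold higher, beside 3.40% of all genes, among them ATF5 at 3662, 4635 and 5905 (0.69).

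ERK output and feedback genes had a median of 0.45 over 16 measured genes, with 12 above the median of all genes and 4 at least 1.5-fold higher, beside 3.40% of all genes. PHLDA1 stood at 15298, 18471 and 24731 (0.69) with probes at 0.66 and 0.73. SPRED2, an inhibitor of RAF activation, stood at 1169, 1716 and 1874 (0.68). DUSP2 (0.51) and DUSP5 (0.50), phosphatases that act on ERK, and cyclin D1, CCND1, at 52494, 59536 and 74515 (0.51), lay below 1.5-fold. Among all 41 measured dual specificity and tyrosine phosphatases 33 lay above the median of all genes, with a median of 0.19. PTPN18 was at 0.76 and the receptor phosphatase PTPRU at 0.71, while PTPRO stood at 38811, 30519 and 24269 (-0.68).

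YAP and TAZ targets had a median of 0.39 over 15 measured genes of 25, in a library labelled for YAP1 knockdown. Of the 15 genes 12 lay above the median of all genes. Over the list, the median of the library labelled DDX3 minus vector was 0.32. That of the library labelled DDX3+YAPsi minus the one labelled DDX3 was 0.07. CTGF, a matrix protein now named CCN2, stood at 476, 698 and 854 (0.84). ASAP1, an ARF inactivator, stood at 799, 1237 and 1359 (0.77), F3, the tissue factor of coagulation, at 798, 1139 and 1285 (0.69), and GADD45A, a DNA damage-induced gene, at 10006, 16345 and 15165 (0.60). The vector library was the lowest in each of these. CYR61, now CCN1, stood at 417, 861 and 585 (0.49), and BIRC5, a mitotic survival factor, at 9467, 8758 and 7902 (-0.26). CTGF and CYR61 lay near the floor of 378 in the vector library, and 1 of the 2 ASAP1 probes lay below it, at 290. With no floor on low values the list lay 0.13 above the median of all genes, in place of 0.37. Its median intensity was 849, and after centring on genes of its level it lay 0.29 above. Hippo pathway components had a median of 0.20 with 17 of 22 above the median of all genes. None was past 1.5-fold, beside 3.40% of all genes higher and 2.91% lower. The kinase MAP4K4 was at 0.49, the scaffold WWC1 at 0.42, TAZ itself, WWTR1, at 0.40 and the activator MOB1A at -0.56.

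Promoters of genes from these lists are shown because EGR1, JUN and the targets of YAP are textbook cases of known binding motifs. The windows run from 250 bases before to 50 after the gene's start and are from RefSeq on GRCh38.p14. Capitals mark matches on either strand to the CArG box of SRF, the CRE core TGACG of the ATF and CREB factors, the AP-1 site TGANTCA and the TEAD motif GGAATG, where overlapping matches would run together.
EGR1 (chr5:138465229-138465528, plus strand): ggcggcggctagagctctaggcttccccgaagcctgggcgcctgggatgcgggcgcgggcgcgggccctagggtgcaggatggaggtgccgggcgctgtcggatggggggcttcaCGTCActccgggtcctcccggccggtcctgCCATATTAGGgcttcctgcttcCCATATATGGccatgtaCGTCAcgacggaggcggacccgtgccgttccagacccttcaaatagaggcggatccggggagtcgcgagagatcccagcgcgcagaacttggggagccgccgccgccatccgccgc
SRF (chr6:43171019-43171318, plus strand): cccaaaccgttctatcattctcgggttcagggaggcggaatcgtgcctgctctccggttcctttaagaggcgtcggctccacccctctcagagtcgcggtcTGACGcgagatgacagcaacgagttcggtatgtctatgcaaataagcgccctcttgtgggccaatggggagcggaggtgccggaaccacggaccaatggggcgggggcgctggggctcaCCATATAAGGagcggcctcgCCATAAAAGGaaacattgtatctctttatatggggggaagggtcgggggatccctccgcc
JUN (chr1:58783998-58784297, minus strand): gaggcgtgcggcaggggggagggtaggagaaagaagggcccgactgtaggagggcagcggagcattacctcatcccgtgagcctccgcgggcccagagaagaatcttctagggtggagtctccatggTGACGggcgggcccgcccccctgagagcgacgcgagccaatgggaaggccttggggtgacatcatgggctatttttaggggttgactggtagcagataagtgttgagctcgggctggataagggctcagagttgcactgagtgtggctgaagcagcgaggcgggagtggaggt
F3 (chr1:94541710-94542009, minus strand): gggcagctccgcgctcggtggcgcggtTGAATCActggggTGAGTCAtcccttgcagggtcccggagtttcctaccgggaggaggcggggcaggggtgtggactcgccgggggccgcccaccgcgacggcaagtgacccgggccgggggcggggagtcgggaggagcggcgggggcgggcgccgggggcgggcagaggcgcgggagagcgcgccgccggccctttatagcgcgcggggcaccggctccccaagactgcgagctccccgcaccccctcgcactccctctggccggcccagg
CTGF (chr6:131951323-131951622, minus strand): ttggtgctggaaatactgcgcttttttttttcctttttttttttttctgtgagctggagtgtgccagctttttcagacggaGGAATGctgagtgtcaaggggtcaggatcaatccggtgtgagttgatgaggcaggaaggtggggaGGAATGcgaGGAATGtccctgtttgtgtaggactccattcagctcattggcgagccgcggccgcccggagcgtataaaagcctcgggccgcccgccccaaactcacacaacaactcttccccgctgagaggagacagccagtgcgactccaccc

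EGR1 held 2 CArG boxes and 2 CRE cores, SRF, the factor that binds such boxes, 2 and 1, JUN 1 CRE core, F3 2 AP-1 sites and CTGF 3 TEAD motifs. SRF itself stood at 11148, 9274 and 12881 (0.21). None of these motifs had a match in the window of ATF3, which says nothing of other windows. Only these exact patterns were searched. A near match such as TGACATCA, which the windows of JUN and ATF3 hold, is therefore neither marked nor counted. Over the lists, a CRE core was present in 12 of 19 promoters of measured immediate early genes, beside 35% of 8152 promoters of measured genes and 25% of 27305 in the table. A CArG box was present in 2 of these 19, beside 1.07% and 1.29%, and a TEAD motif in 3 of 8 promoters of measured YAP and TAZ targets, beside 10.7% and 14%. The AP-1 site was in 1 of those 8, beside 4.18% and 7.76%. Other pairs went either way. The AP-1 site was in 0 and a TEAD motif in 3 of the 19 immediate early promoters. A CRE core was in 2 of the 8 promoters of YAP and TAZ targets. Among 20 promoters of genes at least 2-fold higher, a CRE core was in 7 (35%), a TEAD motif in 1, a CArG box in 1 and the AP-1 site in 0. Promoters were matched for 19 of 26 measured immediate early genes and 8 of 15 YAP and TAZ targets. A match is a description of letters in this window.

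Lists of other signalling pathways also lay above the median of all genes. In the Notch pathway, which sets the choice between absorptive and secretory cells in the gut, 17 of 18 measured genes lay above it, with a median of 0.28. The ligands JAG2 and JAG1 stood at 2678, 4022 and 4439 (0.73) and at 2029, 2116 and 2961 (0.55). NRARP, a feedback inhibitor that Notch induces, stood at 2927, 4554 and 4805 (0.71), and NOTCH1 at 0.31. No Notch gene was past 2-fold and 2 of 18 were at least 1.5-fold higher, beside 3.40% of all genes. Krueppel-like and SP factors had 16 of 18 above and a median of 0.25. KLF2, a factor of quiescent endothelial and T cells, stood at 5361, 8873 and 10653 (0.99), and KLF5, a factor of proliferating crypt cells, at 14419, 21407 and 25136 (0.80).

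Nuclear receptors spread further, with a median of 0.27 over 21 measured genes, 15 of them above the median of all genes. NR2F6, an orphan receptor, stood at 49842, 57538 and 81424 (0.71), NR2F2, or COUP-TFII, at 1037, 1431 and 1679 (0.70) and RORA at 605, 742 and 899 (0.57). The retinoic acid receptors went apart, with RARA at 0.49 and RARG, at 1520, 837 and 864, at -0.81. Among growth factor receptors FGFR3 stood at 2483, 3210 and 4454 (0.84), and over 19 receptor tyrosine kinases outside the ERBB family the median was 0.19. The ERBB family and its ligands had a median of -0.03 over 6 measured genes, with HBEGF at 0.59 and ERBB3, which binds neuregulin, at -0.32. Of 23 measured docking proteins SH2B2 was the 1 past 2-fold, SH2B3 was at 0.38 and DOK4 at -0.60, and the median was 0.03.

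The family of MSI, MEX3, IGF2BP and LIN28 genes, RNA-binding proteins of stem and progenitor cells, had 6 measured genes of 11 and a median of 0.50. MSI1 and MEX3D have been described, IGF2BP2, a stabiliser of messenger RNA, stood at 5102, 5796 and 7444 (0.54), MEX3A, a marker of slowly cycling crypt cells in the mouse, at 547, 751 and 745 (0.45), MEX3C at 0.08 and IGF2BP3 at -0.02. The genes thus spread from past 2-fold down to no difference, with none between MEX3D and IGF2BP2. With no floor on low values the list, then of 11 genes, lay at the median of all genes (-0.0011 from it). Among 5 measured SOX factors SOX4 stood at 11288, 17078 and 17457 (0.63) and SOX9, a factor of crypt progenitors, at 6809, 4483 and 6474 (-0.07).

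Olfactory receptors, keratins and drug-metabolising enzymes had high medians at dim levels. Olfactory receptors, of which 79 of 289 were measured, had a median of 0.23, with 60 above the median of all genes, 10 at least 1.5-fold higher (3.40% of all genes) and 3 lower (2.91% of all genes). OR1I1 stood at 6947, 9869 and 12523 (0.85) and OR2T1 at 24168, 28892 and 14085 (-0.78), so bright probes were found on either side. Keratins had 15 measured of 54, a median of 0.22 and 13 above the median of all genes, with KRT81, a hair keratin, at 0.73 and KRT13, of squamous mucosa, at 0.60. Cytochrome P450 and UGT enzymes had a median of 0.26 over 21 of 57, with CYP1A1, an aryl hydrocarbon receptor target, at 1678, 3366 and 2687 (0.68) and CYP4X1 at -0.74. The median intensity of these lists was 915, 797 and 1033, and in the 3 dimmest bins by level the median difference of all genes was 0.14, 0.11 and 0.05. Once each difference was centred on that of genes of its level, the lists lay 0.17, 0.20 and 0.21 above the median of all genes.

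Below the median of all genes stood the enzymes that charge transfer RNA. All 35 aminoacyl-tRNA synthetases on the array were measured and 31 lay below it, with a median of -0.27. At least 1.5-fold lower were 5 of 35, beside 2.91% of all genes, and none was at least 1.5-fold higher. QARS, the glutaminyl enzyme, stood at 24042, 17360 and 14087 (-0.77), and RARS2, the mitochondrial arginyl enzyme, at 9893, 6972 and 5820 (-0.77). HARS2 stood at 24124, 22756 and 15015 (-0.68) and NARS2 at 6591, 6431 and 4219 (-0.64). Over the list, the median of the library labelled DDX3 minus vector was -0.04. The 16 enzymes with a name ending in 2, which marks the mitochondrial forms, had a median of -0.40 and the other 19 of -0.20. In all, 30 of the 35 rest on 1 probe.

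Mitochondrial ribosomal proteins had a median of -0.17 with 59 of 70 below the median of all genes, at -0.15 in the large and -0.24 in the small subunit. MRPL38 stood at 15342, 3881 and 7686 (-0.997), lowest in the library labelled DDX3, and MRPL2 at 3725, 1984 and 1913 (-0.96). Enzymes of the tricarboxylic acid cycle, a list that also holds cytosolic forms, had a median of -0.24, with 17 of 22 below. Beside the cytosolic ACO1, PDHB, a subunit of pyruvate dehydrogenase, stood at 14488, 10897 and 8787 (-0.72), and IDH1, the cytosolic isocitrate dehydrogenase, at 43484, 38796 and 28072 (-0.63). The subunits of oxidative phosphorylation, which also lie in the inner membrane and matrix, had a median of -0.01, with 41 of 79 below the median of all genes. Complex I stood at 0.03 over 40 genes, complex II at -0.25 over 3, complex IV at 0.03 over 11 and complex V at -0.08 over 17. Complex III held UQCRC1 at 32438, 22131 and 18544 (-0.81) and UQCRC2 at 40406, 35646 and 25488 (-0.66), its core proteins, within a median of -0.04 over 7 genes.

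The proteasome list, of the complex that degrades ubiquitinated proteins, had a median of -0.21 over 44 measured genes, with 36 below the median of all genes. All 6 ATPases of the regulatory particle lay below, with a median of -0.34, as did 10 of its 12 other subunits, with -0.34. So did 15 of 17 core subunits, with -0.14. The 9 measured PSME, PSMF and PSMG genes were split, with 5 below and 4 above and a median of -0.21. PSMC6 stood at 45440, 41446 and 31285 (-0.54) and PSMD10, an assembly chaperone also called gankyrin, at 13160, 11353 and 8467 (-0.64). Apart from PSMD4, no measured subunit was past 2-fold. Ubiquitin-conjugating enzymes (-0.06 over 24), deubiquitinases (0.04 over 45) and TRIM and RNF ligases (0.02 over 80) had medians close to that of all genes. Autophagy genes had -0.19 over 25, with none past 1.5-fold, beside 3.40% of all genes higher and 2.91% lower.

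DEAD-box and DEAH-box helicases, the family of DDX3X, had a median of -0.17, with 33 of 43 below the median of all genes. Of the 43, DDX3X and DDX41 were at least 1.5-fold lower and DHX16 at least 1.5-fold higher, beside 2.91% and 3.40% of all genes. The probes of DDX3X disagreed, as given above, at -1.28 and -0.04. DDX41, a helicase of splicing and DNA sensing, stood at 821, 516 and 546 (-0.59). Its probes were at -0.39 and -0.79, the second short of the floor in the library labelled DDX3+YAPsi. DHX16, which acts before the first splicing step, stood at 1115, 2033 and 1688 (0.60). DDX47, of ribosome assembly, stood at 12227, 15641 and 8468 (-0.53), and DDX6, of processing bodies, at 2684, 2973 and 3773 (0.49). Cytosolic ribosomal proteins had a median of -0.10 with 47 of 63 below, and translation initiation factors -0.01 with 29 of 51 below. RPL30 stood at 106680, 107976 and 62629 (-0.77) and EIF3K was at -0.65.

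Lists of cell division were low as well. Mitotic spindle and checkpoint genes had 40 of 50 below the median of all genes and a median of -0.23. BUB1B, a checkpoint kinase, stood at 1512, 1447 and 945 (-0.68) and KIF2C, a microtubule depolymerase, at 13325, 9910 and 8848 (-0.59), while the proliferation antigen MKI67 stood at 6056, 7170 and 9257 (0.61). DNA replication genes had 36 of 48 below and a median of -0.12. CDC45, a part of the replicative helicase, stood at 5086, 3273 and 2885 (-0.82) and PCNA, the sliding clamp, at 162439, 118281 and 99516 (-0.71), while POLD1, the catalytic subunit of polymerase delta, stood at 3190, 3687 and 5242 (0.72). PMS2, of mismatch repair, stood at 1027, 668 and 545 (-0.91). Mismatch repair and homologous recombination genes had a median of -0.12 with 21 of 28 below, and all 5 measured topoisomerases lay below with a median of -0.22. G1 and S phase regulators had a median of 0.03 over 28 genes.

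Sterol synthesis enzymes were below the median of all genes in 18 of 20 cases, with a median of -0.19. Beside FDPS and ACAT2, IDI1, which makes dimethylallyl diphosphate, stood at 9348, 9658 and 6225 (-0.59) and PMVK, phosphomevalonate kinase, at 3339, 3420 and 2348 (-0.51), both lowest in the library labelled DDX3+YAPsi. Over the list, the median of the library labelled DDX3 minus vector was -0.13. Fatty acid synthesis genes had a median of -0.16 over 20, with none past 1.5-fold, beside 3.40% of all genes higher and 2.91% lower. Serine, glycine and one-carbon enzymes had -0.14 over 16, and MTHFD1 was at -0.62. Glycolysis had -0.08 over 21, with GAPDH at 151000, 141248 and 91319 (-0.73) and the hexokinase HK1 at 0.45.

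Genes often used as references differed too. Of 12 measured, 10 lay below the median of all genes, and their median was -0.34. PPIA stood at 3304, 2796 and 2418 (-0.45), while POLR2A, the large subunit of RNA polymerase II, stood at 7526, 8487 and 12735 (0.76) and YWHAZ at 22530, 27002 and 30878 (0.45). Their median intensity was 15287, and after centring on genes of their level it was -0.33 from that of all genes. Whether a shared property of the dimmer library, such as its deposited 75th percentile of 1710 against 2856, has a part in the low lists was not tested.

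**Figure D5:**
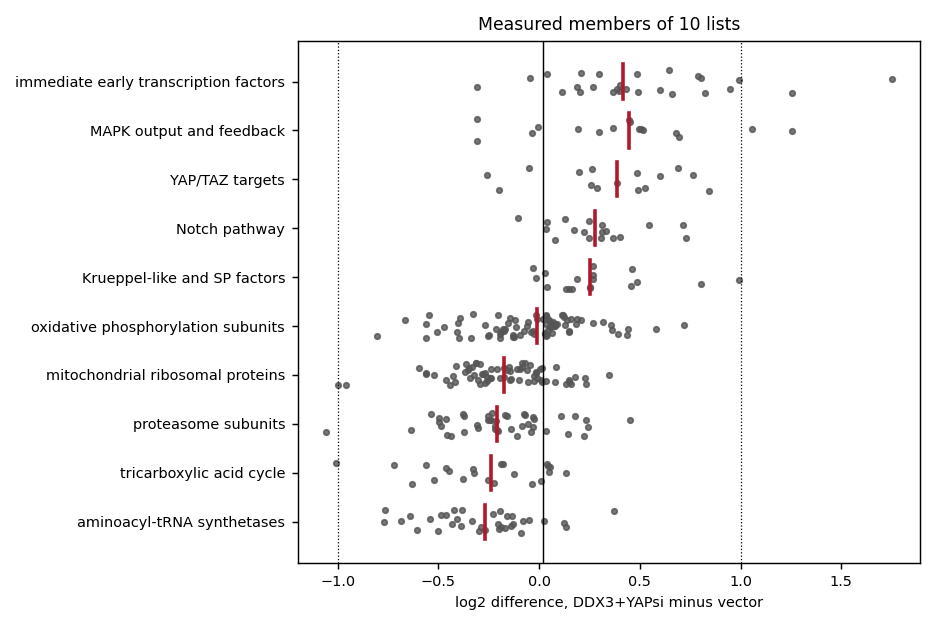
Log2 difference, DDX3+YAPsi minus vector, of every measured member (points, spread vertically for sight) of 10 lists, with each list's median as a red bar, the median of all genes as a line and 2-fold as dotted lines. Medians fall from 0.42 for the immediate early genes and 0.45 for the ERK output genes to -0.21 for the proteasome and -0.27 for the aminoacyl-tRNA synthetases, with oxidative phosphorylation at -0.01.

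A feature that the choice of members did not use is the base composition of the promoter. A 300-base window was found for 8154 measured genes, 82.7% of all. In 5 bins of these genes by the share of G and C, whose median share ran from 51.7% in the lowest to 77% in the highest, the median difference was -0.01, -0.04, -0.03, 0.02 and 0.11. After centring on genes of the same level these values were -0.03, -0.05, -0.03, 0.01 and 0.09. Of 20 higher genes with a window 9 fell in the highest bin and 3 in the lowest, and of 17 lower genes 4 and 6. Of all 8154 genes with a window, 1623 were in the highest bin and 1688 in the lowest. The bin of highest share had the highest median with and without centring, and its part in the lists was not tested.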

How the data were processed

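Total RNA of 3 samples, of which 2 are compared here, was amplified and labelled with Cy5 per the labels' protocols. The deposited file holds 1 intensity per probe and sample on a linear scale, for 31741 probes. The sources used here do not say what the authors did in background correction, scaling or combining technical replicates. Some values exceed 65535, so they are not plain scanner readings, and saturation could not be judged. The number of arrays limits the precision.

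The 75th percentiles were set equal, at the geometric mean over all 3 libraries, by factors of 0.806 for vector, 0.922 for DDX3 and 1.35 for DDX3+YAPsi, and log2 was taken. Probe names came from GEO's platform annotation, which may be outdated. It gave 1 symbol for 24658 probes, several for 1002 and none for 6081, and those with 1 symbol were averaged per gene on the log2 scale. The floor was the median of all probes in each library, at 378, 382 and 411. After scaling, the library medians still differed by 0.12 (log2). For names and promoters, older symbols were updated through RefSeq (GRCh38.p14), where 9826 of 9855 measured genes had a current symbol.

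There was no test, since each group had 1 sample. Lists are described by their counts and median beside those of all measured genes. The members, gene lists and naming rule were chosen with earlier results of these data known. The rule for named genes allows every gene past 2-fold, the 15 genes per direction whose least moved probe differed most, the 10 largest bounds per direction, the 6 most different members of each list and any past 1.5-fold, genes next to the floor and markers, with DDX3X, YAP1 and SIX2. NOTCH1, SRF and a few other list members outside it were named after their values were seen. Alternatives were other scalings (none, median, quantile, loess on level), floors, a pseudocount of 100, probe summaries and thresholds. The steps were tested on simulated data. Python 3.11.15, numpy 2.4.6, pandas 2.3.3, statsmodels 0.14.6 and matplotlib 3.10.9 were used.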

Additional observations from a re-analysis of the deposited data

Results flagged for a closer look

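Probes without a gene value were outside the comparison of genes. Among 7083 probes with several symbols or none in the annotation used, 2296 reached the floor in both libraries, and 14 of them (0.61%) had a difference of 2-fold or more upwards and 9 (0.392%) downwards. They were flagged because this signal lies in data that the comparison did not use. Among 13098 measured probes with 1 symbol, 52 were higher (0.397%) and 50 lower (0.382%). The differences of the unnamed probes ran from -1.46 to 1.46. No group had 4 or more samples, so no sample could be set apart from others of its group.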

How the results depend on the processing

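Of the counts of genes past 2-fold upwards (27) and downwards (20), both changed by over 1.5 times with no scaling, to 3 and 1892, with a common median, to 14 and 44, with a floor at the 75th percentile, to 7 and 6, and with no floor, to 89 and 37. At a 1.5-fold threshold they were 335 and 287, at 3-fold 4 and 1, and where all of 2 or more probes had to pass 2-fold, 0 and 0 of 2068 genes. The higher count alone moved with a floor at the 25th percentile (64) and with the brightest probe (49), and the lower count alone with a pseudocount of 100 (7). Fewer or more genes tested go with the floors. For the brightest probe the cause was not tested. Leaving scaling out moves every difference by -0.74 and the common median by -0.12, which turns the split. Quantile normalization gave 24 and 23, loess centring on level 23 and 19, and the median of probes 28 and 22. Of the 27 higher genes 14 remained at least 2-fold higher with the common median and 21 with loess centring, and of the 20 lower genes 20 and 17 remained lower. No gene at least 2-fold apart in the main setting changed sign in any of the 10 settings of scaling, floor, pseudocount and probe summary in which it was measured. The check was weak, since these genes differed by 1 or more and the shifts of -0.74 and -0.12 could not turn their sign. A floor does not alter a gene's value. The probe summaries leave alone the 40 of 47 genes with 1 probe.

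List medians were taken relative to that of all measured genes, which a common factor does not move. Of 45 lists 0.1 or more away, 44 kept their side in those settings in which they had 4 or more measured members. The exception was the list of MSI, MEX3, IGF2BP and LIN28 genes, at 0.48, which turned to -0.00108 with no floor, where all 11 of its genes count. The aminoacyl-tRNA synthetases ranged from -0.40 to -0.22, the proteasome from -0.33 to -0.19, the immediate early genes from 0.27 to 0.45 and the Notch list from 0.10 to 0.34. The Hippo list fell from 0.18 to 0.03 with a floor at the 75th percentile. No paired analysis was possible because each group had 1 sample, and no replicate could be left out for the same reason. Dim genes near the floor are the least certain.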

Other observations

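HOX genes, which record position along the gut, went both ways within a median of 0.10 over 21 measured genes. HOXB7 stood at 37073, 46194 and 56188 (0.60) and HOXB5 at 0.40, while HOXA10 stood at 3998, 4054 and 2638 (-0.60), HOXA9 at -0.45 and HOXB13, a factor of the distal colon, at 2271, 1624 and 1644 (-0.47). Of 44 intestinal lineage markers 12 were measured, 10 of them above the median of all genes, with a median of 0.23. Within them REG3G, an antimicrobial lectin, stood at 1206, 381 and 618 (-0.96) and GUCA2A, or guanylin, at 650, 858 and 972 (0.58).

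Among p53 targets MDM2 was at 0.63 with probes at 0.25 and 1.01, PLK3 at 0.57 and TP53INP1 at 0.52, while TP53I3 was at -0.50 and CDKN1A at -0.27, with 14 of 20 above the median of all genes. Amino acid transport gave SLC7A5, the large neutral amino acid carrier, at 0.77, and iron export SLC40A1, or ferroportin, at -0.81. The 145 measured solute carriers outside the mitochondrial family had a median of 0.03. Histone cluster genes had a median of -0.01 over 19 measured genes of 55.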
